A study of Mus musculus with 52 samples.

Results

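The nuclear genes of the mitochondrial respiratory chain and the ATP synthase were followed in spinal cord of mice that carry a mutant SOD1 transgene, G37R or G85R, and of non-transgenic controls. Genes were chosen by name: every listed gene whose symbol begins with Nduf, Uqcr, Cox4 to Cox8 or Atp5, and Sdha to Sdhd. This gave 90 genes of the 23697 listed, each present in all 6 deposited tables. By their known place they were 36 genes of complex I, 4 of complex II, 8 of complex III, 17 of complex IV and 15 of complex V. The remaining 10 share a name with the chain and were kept apart: Ndufaf1 to Ndufaf4, Ndufa4 and Ndufa4l2, Cox7a2l, Cox4nb, Atp5s and Atp5sl. Ndufa4 is named for complex I but is a subunit of complex IV, and Ndufa4l2 is its paralogue. The others are assembly factors, regulators or genes of other function. Counts by complex leave all 10 out, so those of complex IV are without Ndufa4.

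Complex I (NADH dehydrogenase) and complex II (succinate dehydrogenase, which is also an enzyme of the citric acid cycle) pass electrons from nutrients to ubiquinone. Complex III and complex IV (cytochrome c oxidase) carry them on to oxygen, and complex V (the ATP synthase) uses the proton gradient built on the way to make ATP. A few core subunits do the catalysis, while many small accessory subunits surround them, and spinal motor neurons, with their long axons, are known for a high demand for this ATP.

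Ribosome-bound RNA of single cell types and RNA of spinal cord were profiled by poly(A) RNA-seq. The ribosome-bound RNA came from bacTRAP reporter mice, in which an EGFP-tagged ribosomal protein, RPL10A, marks 1 cell type and is recovered with antibodies to GFP. The other libraries are labelled spinal cord. At disease onset there were 4 SOD1 G37R and 4 Non-Tg libraries of motor neurons, 4 and 6 of astrocytes, 4 and 5 of oligodendrocytes at 8 months, and 4 and 4 of spinal cord at 8 months, all labelled male. At the early symptomatic stage of 11 months there were 3 SOD1 G37R, 3 SOD1 G85R and 5 Non-Tg oligodendrocyte libraries, and 3 SOD1 G37R and 3 Non-Tg spinal cord libraries, of both sexes. No age was given for the motor neuron and astrocyte groups, and the promoters of the reporters and of the SOD1 transgenes are not given in the sources used here. Levels are in FPKM-equivalents, that is, sequenced fragments scaled to transcript length and library size (FPKM) as deposited for the 11-month spinal cord, and the other 5 tables divided by the scale factor of 16774 that brought the 8-month spinal cord to the 11-month one. For the purified cells that factor is an assumption, which moves levels across tables but no comparison within a table.

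The labelled cell types carried their markers. The summed level of 8 motor neuron markers was 2368 to 2771 in control motor neuron libraries, against 27.6 to 45.5 in control astrocyte libraries. The summed astrocyte markers were 14747 to 17262 in control astrocytes, and the summed oligodendrocyte markers 34099 to 39467 in 8-month control oligodendrocytes. At 11 months the oligodendrocyte sum spread widely, from 15991 to 38625 over the 5 control libraries. Libraries also differed in the balance of short and long transcripts, given here per library as the median log2 deviation from the table mean of non-member genes under 1000 nt minus that of genes over 3000 nt. This balance matters because the transcripts of the 90 genes are short, with a median of 744 nt against 2397 nt over all genes with a length, and it is given with the results below. In these bulk samples, fewer cells of a type and less RNA per cell cannot be told apart.

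In control cells the chain took a larger share of the summed level in motor neurons and astrocytes than in oligodendrocytes or whole cord. The 90 genes held 9.81% to 10.5% of the summed level in control motor neurons and 7.45% to 8.97% in control astrocytes. In control oligodendrocytes the share was 3.32% to 4.17% at 8 months and 4.21% to 5.15% at 11 months, and in control spinal cord 3.19% to 3.64% and 4.52% to 5.09% at the same ages. The sum also depends on its highest gene, which alone took 0.803% to 1.28% in control motor neurons and 5.25% to 8.63% in control astrocytes. That gene took 9.92% to 16.1% in 8-month and 1.71% to 2.33% in 11-month control oligodendrocytes. In control cord it took 17.4% to 21.1% at 8 months and 1.99% to 2.43% at 11 months. The tables were normalized separately, so the shares of the chain across tables are a description without a test. The median gene of the 90 had a control mean of 520.5 in motor neurons, 472 in astrocytes, 230.0 and 230.5 in 8-month and 11-month oligodendrocytes, and 166 and 187 in 8-month and 11-month spinal cord. Atp5k, the small e subunit of the ATP synthase membrane part, was the highest of them in motor neurons at 5142 and in astrocytes at 3513. Cox4i1, the largest nuclear-encoded subunit of complex IV, led in 8-month oligodendrocytes at 1195 and in 11-month oligodendrocytes at 1252. In complex I the small accessory subunit Ndufa3 was the highest gene in all 6 tables. Many of these small genes have processed pseudogenes, and how shared reads were assigned is not given in the sources used here. The level of such a gene is uncertain, as for Ndufs5 at 4.43, Atp5l at 24.2 and Cox7c at 85.5 in 11-month control oligodendrocytes. None of the 13 mitochondrially encoded subunits matched a listed gene, so those are not analysed here.

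Complex IV has pairs of isoform genes, one widely expressed and one best known from heart, skeletal muscle, lung or testis. Of the second kind, 5 genes were higher in control astrocytes than in any other control group. Cox7a1, the heart and muscle form of subunit 7a, averaged 303 ± 17.0 in astrocytes (SD, n = 6), against 59.0 in motor neurons, 7.27 and 5.86 in 8-month and 11-month oligodendrocytes and 22.2 and 32.4 in 8-month and 11-month spinal cord. Its widely expressed partner Cox7a2 was at 766 in astrocytes and 1208 in motor neurons. Cox6b2, known from testis, averaged 62.0 ± 5.32 in astrocytes (SD, n = 6), where every other control group averaged 8.93 or less. Cox8b, a muscle form, averaged 49.7 in astrocytes, from 41.3 to 64.2 over 6 libraries, and no other control group averaged over 4.87. The lung form Cox4i2 was at 8.16 and Cox7b2 at 7.58 in astrocytes. For all 5 genes, each astrocyte control library lay above every control library of the other tables. The share of all genes with this pattern was not computed, so the count does not show that these isoforms are unusual. It also rests on the assumed scale factor between tables. Cox6a2, the heart and muscle form of subunit 6a, did not share this pattern, at 0.399 in astrocytes, 2.05 in 8-month and 2.80 in 11-month oligodendrocytes. Markers of other tissues with such isoforms differed among themselves in the same astrocyte libraries. Of 4 skeletal or heart muscle markers, Tnnt3 was at 2.18, against 0.217 or less in every other control group, while Acta1 was at 0.188, Ckm at 0.0432 and Myh1 at 0. Of 4 pericyte and smooth muscle markers, Tagln was at 17.9, Pdgfrb at 1.32, Acta2 at 0.830 and Rgs5 at 0.394. Summed, the muscle markers were 1.58 to 3.37 in control astrocyte libraries and 1.30 to 1.57 in control motor neuron libraries, and the pericyte and smooth muscle markers 14.9 to 27.2 and 2.53 to 3.07. Their part in the isoform levels was not tested.

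**Figure D1:**
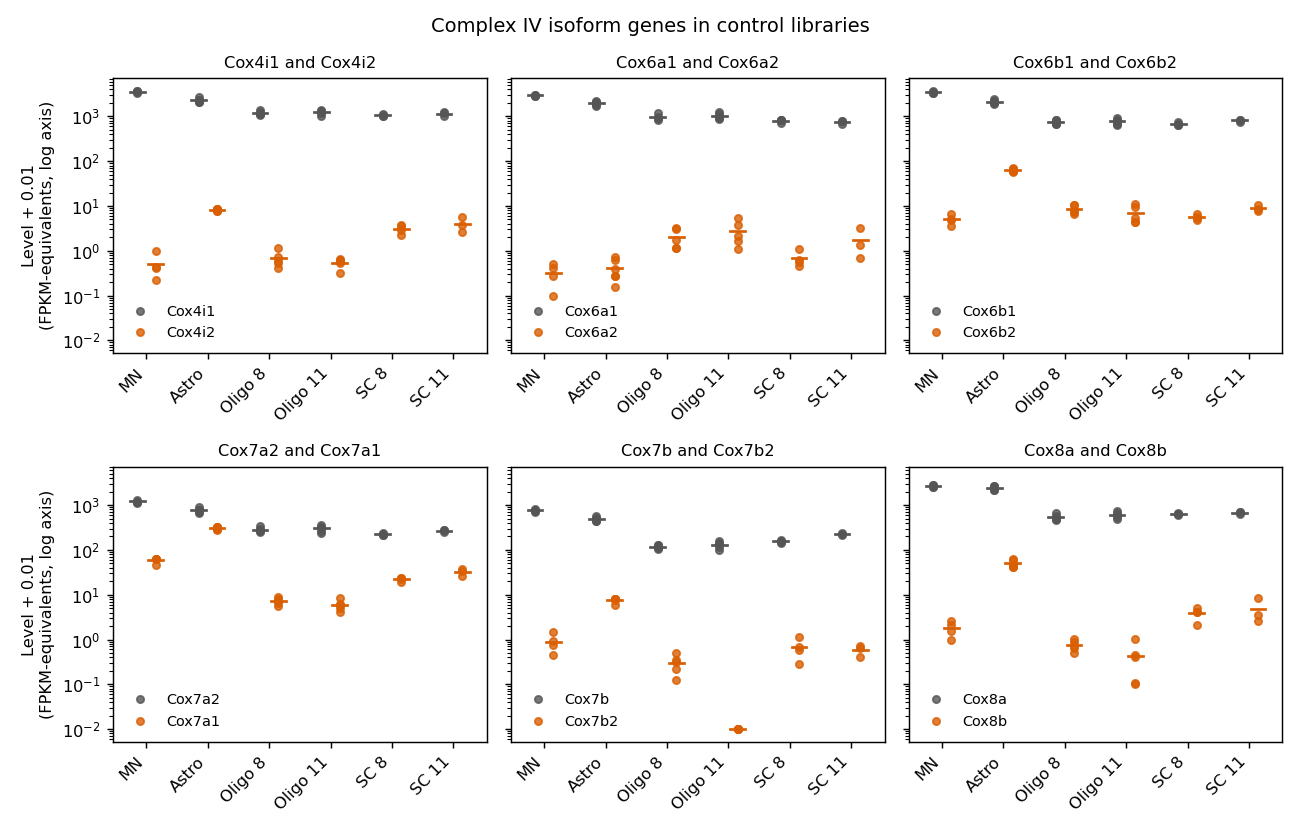
Level (FPKM-equivalents plus 0.01, log axis) of 6 complex IV isoform pairs in each control library, with the widely expressed gene in grey, the tissue isoform in orange and bars for means, in motor neurons (MN), astrocytes (Astro), oligodendrocytes (Oligo) and spinal cord (SC) at 8 or 11 months. Cox7a1 at 303, Cox6b2 at 62.0 and Cox8b at 49.7 stood highest in astrocytes, and Cox7b2 was listed at 0 in 11-month oligodendrocytes.

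The first comparison asked which genes of the chain differed in motor neurons with SOD1 G37R at onset. In G37R motor neurons 16 of the 85 tested genes fell and none rose, by limma with Benjamini-Hochberg adjustment over all 12303 tested genes at an adjusted p under 0.05. Those 16 are 18.8% of the 85, while over all tested genes 6.37% were lower and 6.49% were higher. The fall was modest, between 0.19 and 0.37 on the log2 scale for the 16 genes, and the median of the 85 was -0.13 against 0.01 over all genes. At an unadjusted p under 0.05, 37 were lower and 2 higher, where all genes had 14.9% lower and 17.5% higher. Of the 85 changes 70 were negative, where 46.6% of all genes were.

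The genes that fell were mostly accessory subunits of complex I. Of its 29 accessory subunits 9 fell and all 29 had a negative change, with a median of -0.16, while 0 of its 7 core subunits fell. Ndufb11, an accessory subunit of the membrane arm (mm9, chromosome X, 20192451 to 20194690), was at 302, 278, 284 and 290.3 in G37R motor neurons, against 370.3, 375, 348 and 389 in control motor neurons. All 4 G37R libraries were below the lowest control. The means were 288 ± 10.2 and 371 ± 16.8 (SD, n = 4 each), a change of -0.36 ± 0.05 (log2, SE) with an adjusted p of 0.00703. Ndufb8, of the same arm, was at 1579, 1379, 1451 and 1335 in G37R motor neurons and at 1728, 1756, 1646 and 1853 in controls, again without overlap. Its change was -0.28 (adjusted p = 0.0207). Ndufv3, a small subunit beside the NADH-oxidizing flavoprotein, was at 593, 574, 524 and 453 in G37R motor neurons and at 666, 701, 644 and 696 in controls, and fell by 0.34 (adjusted p = 0.0235). Ndufa10 (mm9, chromosome 1, 94336295 to 94370335) was at 259.6, 268, 269.8 and 271 in G37R motor neurons and at 294, 312, 324 and 336 in controls, and fell by 0.24 (adjusted p = 0.0188). The others were Ndufb5 and Ndufa2 at -0.25, Ndufb2 at -0.22, Ndufa11 at -0.20 and Ndufa3 at -0.19, with adjusted p between 0.0206 and 0.0443. Of these, Ndufb2 was the gene whose groups overlapped. Of the 7 core subunits 4 had a negative change, from -0.15 upward with a median of -0.05, and 2 were lower at an unadjusted p under 0.05. Ndufs1, the large iron-sulfur subunit, had the highest value of the 7, 0.19 (adjusted p = 0.189). The difference between accessory and core subunits was not tested.

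In the other complexes single genes fell. Cox4i1 (mm9, chromosome 8, 123192189 to 123198109) was at 3068, 2804, 2937 and 2822 in G37R motor neurons, against 3550.0, 3608, 3395 and 3705 in controls. Its groups did not overlap, and the change was -0.29 ± 0.05 with an adjusted p of 0.0112. It was the 1 gene that fell of the 13 tested and counted with complex IV, and 12 of the 13 had negative changes. Ndufa4, a subunit of complex IV kept apart from that count, is given below. Uqcrh, the hinge protein of complex III, was at 1904, 1754, 1823 and 1762 in G37R motor neurons and at 2102, 2135, 2023 and 2425 in controls, and fell by 0.26 (adjusted p = 0.0268). It was 1 of 8 in complex III. In complex V 2 of 15 fell, both from the stalk and membrane part. Atp5j, coupling factor 6 of the peripheral stalk, was at 850.0, 758, 809.7 and 727 in G37R motor neurons and at 936, 936, 897 and 995 in controls, a change of -0.26 (adjusted p = 0.0232). Atp5j2, the f subunit, also had -0.26 (adjusted p = 0.0347). The catalytic beta subunit Atp5b had the opposite sign without passing: it was at 1161, 1168, 1469 and 1485 in G37R motor neurons and at 1149, 1120.4, 1064 and 1181 in controls, with overlap (0.22, adjusted p = 0.112).

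Complex II did not pass in any of its 4 genes in motor neurons. Sdha, its flavoprotein, had 0.17 (adjusted p = 0.163), Sdhb -0.08, Sdhc 0.08 and Sdhd -0.06. Of the isoform sets, Atp5g1, Atp5g2 and Atp5g3, which encode the same mature c subunit of the rotor ring, had -0.17, -0.14 and -0.05, and Cox6a1, Cox7a1, Cox7a2 and Cox8a lay between -0.08 and -0.19, none past the threshold. Cox8b had 0.31 (adjusted p = 0.256). Among the genes kept apart, 3 of 9 fell. Ndufa4, long counted with complex I and now placed in complex IV, was at 3219.8, 2983, 2868 and 2857 in G37R motor neurons and at 3657, 3672, 3344 and 3736 in controls, and fell by 0.27 (adjusted p = 0.0188). Ndufaf2, an assembly factor of complex I, averaged 239 in G37R and 310.0 in control motor neurons and fell by 0.37 (adjusted p = 0.0245). Cox7a2l, which joins complexes III and IV into supercomplexes, fell by 0.23 (adjusted p = 0.0248).

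**Figure D2:**
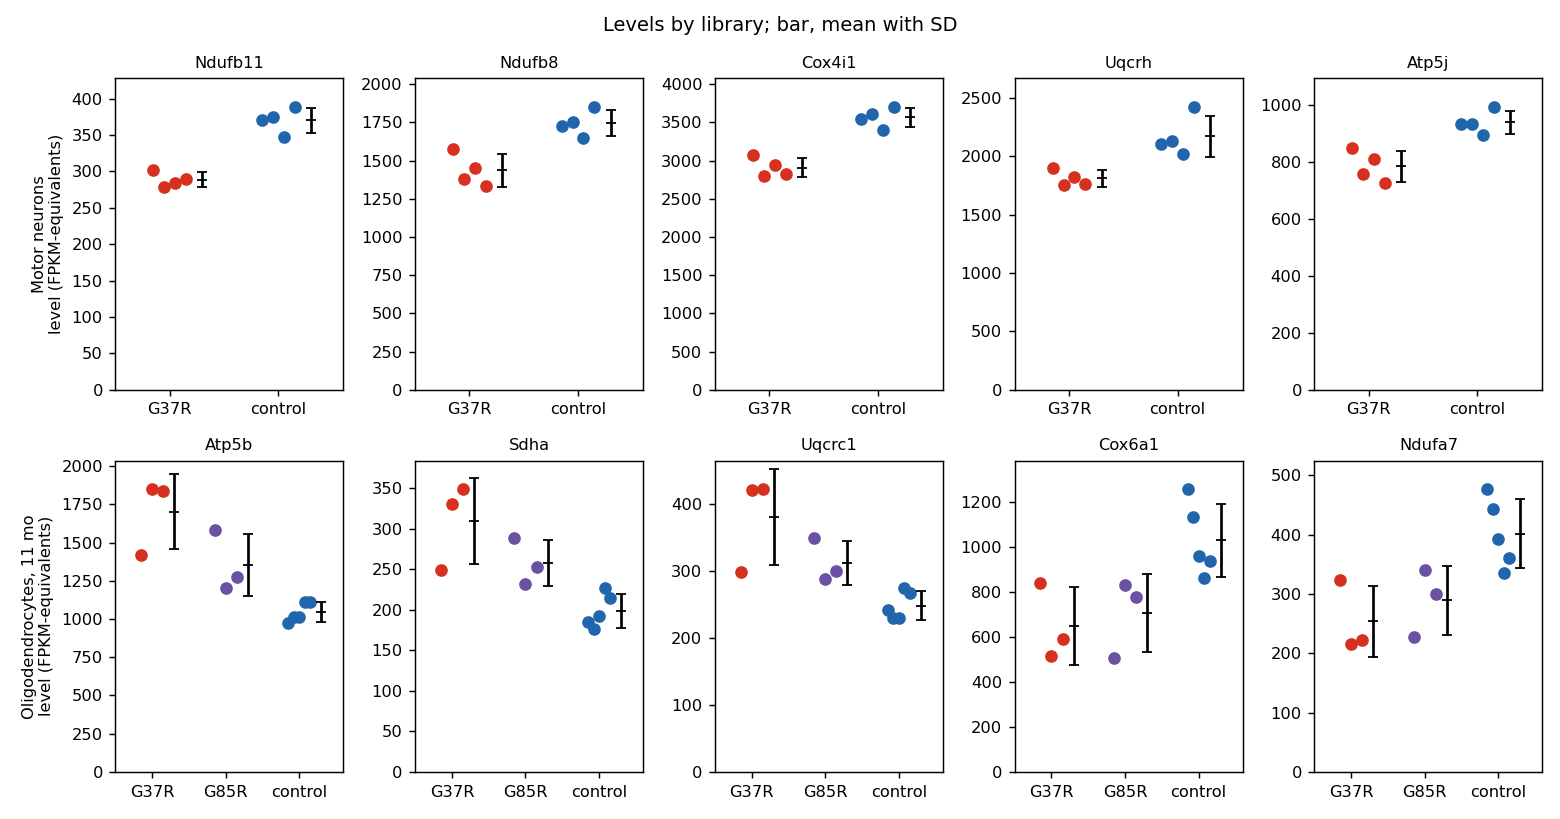
Level (FPKM-equivalents, axes from 0) of 10 genes in each library, with points for libraries and bars for the mean with SD. The upper row shows motor neurons with G37R left of control, where Ndufb11 averaged 288 in G37R and 371 in control libraries. The lower row shows 11-month oligodendrocytes with G37R, G85R and control, where Atp5b averaged 1702 in G37R and 1045 in control libraries.

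Of 91 tested genes in 5 lists of other mitochondrial genes, chosen with earlier results of these data known, 13 rose and 3 fell in motor neurons. Over all tested genes 6.49% were higher and 6.37% lower. Of 17 genes of the citric acid cycle and pyruvate entry, 8 rose and 0 fell, with a median of 0.23. Cs, citrate synthase, averaged 156 ± 6.20 in G37R and 131 ± 8.79 in control motor neurons (SD, n = 4 each), a change of 0.25 (adjusted p = 0.0227). Dlst had 0.27, Pcx 0.41 and Idh3a 0.23. Of 21 electron carriers and related subunits outside the name rule 2 rose and 1 fell. The one that fell was Atpif1, the inhibitor of the ATP synthase, at -0.22 (adjusted p = 0.0200), and Gpd2, which feeds electrons from glycerol phosphate, rose by 0.60. Atpaf1, an assembly factor of the ATP synthase head, fell by 0.33 (adjusted p = 0.0114), the 1 of 25 assembly factors to pass, with 11 of the 25 positive and a median of -0.02. Of 17 genes listed under outer membrane and protein import 3 rose and 1 fell, with Hspa9, the import motor chaperone, at 0.40 and Timm23 at -0.26. None of 11 regulators of mitochondrial biogenesis passed, at a median of 0.07. For these lists the dependence on transcript length and on single libraries is not given here.

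Other measures moved with the same libraries. Summed markers of microglia and macrophages were 24.0 to 61.5 in G37R motor neuron libraries and 7.54 to 11.2 in controls, with 6 of 6 tested markers higher. Astrocyte markers summed to 846 to 1519 and 593 to 725, and oligodendrocyte markers to 583 to 1011 and 462 to 517, in G37R and control libraries. Motor neuron markers summed to 2063 to 2539 in G37R and 2368 to 2771 in control libraries, with Isl2, Mnx1 and Chodl lower, 3 of 8. The balance of short and long transcripts was -0.14 to 0.04 in G37R and 0.01 to 0.08 in control libraries. The part of these cell types in the result was not tested. Set against non-member genes of like transcript length, 6 of 18 chain genes between 600 and 800 nt fell (33.3%), and 9.91% of 333 other genes did. Under 600 nt the shares were 17.9% of 28 and 15.5% of 155. The other length classes are not given here, so these shares do not show an excess beyond length. With each library's trend on transcript length subtracted, an alternative chosen after seeing the data, 14 genes fell, 13 of them among the 16, where 8.14% of all genes did, and the median of the chain was -0.04. Ndufb11 then had -0.31 (adjusted p = 0.00424) and Cox4i1 -0.22 (adjusted p = 0.00681). Those 2 genes passed under all 18 alternatives run for motor neurons, with adjusted p up to 0.0360 for Ndufb11 and 0.0484 for Cox4i1.

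The count of 16 depended on single libraries. It was 2 without control 2, 2 without control 4, 6 without control 3, 7 without G37R 3, 8 without G37R 4 and 28 without G37R 1. Without G37R 3 and 4 together, the libraries with the most glial transcripts, it was 2.

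Promoter sequences were available for 74 of the 90 genes in RefSeq windows of GRCm38.p6, from 250 bases before to 50 after the annotated start, and were searched on both strands for 4 motifs of factors known at such genes. A gene was counted once if any of its windows held the motif. The NRF1 motif GCGCANGCG was found for 21 of the 74 genes (28.4%), against 7.03% of all 27025 genes with a window. The YY1 motif AAGATGGCG was in 10.8% and 1.64%, the ETS motif CCGGAAGT in 6.76% and 4.31%, and the SP1 motif GGGCGG in 44.6% and 38.2%. Among the 14 genes lower in motor neurons and with a window, 1 held the NRF1 motif and 7 the SP1 motif. The windows of Ndufb11, the gene with the lowest p there, and of Ndufa10, the accessory subunit with the next lowest, are shown on the strand of the gene, with motif matches in capitals, at chrX:20617570-20617869 and chr1:92473709-92474008, both on the minus strand. Ndufb11 held none of the 4 motifs in this window, and Ndufa10 held 2 matches to SP1, both on the opposite strand.
Ndufb11: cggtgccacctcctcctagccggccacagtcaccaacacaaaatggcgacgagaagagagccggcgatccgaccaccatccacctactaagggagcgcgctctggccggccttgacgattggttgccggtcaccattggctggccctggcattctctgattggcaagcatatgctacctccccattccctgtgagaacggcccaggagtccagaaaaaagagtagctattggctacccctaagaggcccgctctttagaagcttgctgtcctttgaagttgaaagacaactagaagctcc
Ndufa10: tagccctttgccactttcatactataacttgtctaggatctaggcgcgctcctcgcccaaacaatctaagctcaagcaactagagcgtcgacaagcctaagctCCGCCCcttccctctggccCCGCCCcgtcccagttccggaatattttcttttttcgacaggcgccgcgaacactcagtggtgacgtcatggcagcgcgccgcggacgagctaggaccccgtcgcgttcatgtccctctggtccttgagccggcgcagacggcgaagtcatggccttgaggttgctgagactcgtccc

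In G37R astrocytes no gene of the chain passed. Of 88 tested genes 0 were higher and 0 lower by limma, where 1.52% of all 12466 genes were higher and 0.818% lower. At an unadjusted p under 0.05 there was 1 higher and 0 lower, where all genes had 6.80% and 9.97%. Yet 80 of the 88 changes were positive, with a median of 0.11, where 49.6% of all genes were positive. Library 4 of the G37R group went the other way: the 90 genes summed to 82952, 63123, 78672 and 51506 in G37R libraries 1 to 4, and to 55652 to 71889.9 in controls. The length balance followed the same order, at 0.39, 0.07, 0.37 and -0.34 in G37R libraries and -0.25 to 0.19 in controls, and its part in the result was not tested on its own. With the length trend subtracted the median was 0.01. Without G37R 4 it was 0.23, with 1 gene higher.

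The gene nearest the threshold in astrocytes was Cox4i2, the lung isoform of subunit 4. It averaged 10.3 ± 1.77 in G37R astrocytes (SD, n = 4), from 8.54 in library 4 to 12.8 in library 3, and 8.16 ± 0.409 in controls (SD, n = 6), from 7.56 to 8.57. Library 4 alone lay inside the control range (0.30, adjusted p = 0.136). Cox8b had -0.31 (adjusted p = 0.538), Sdha -0.01, Sdhb 0.10, Sdhc 0.08 and Sdhd 0.05. Atp5k was at 5086, 3606, 4614 and 2901 in G37R astrocytes and had a median of 3498 in controls, from 3052 to 4368, which overlapped (0.18). Outside the chain, Ppargc1a, a coactivator of mitochondrial biogenesis, averaged 7.16 ± 0.695 in G37R astrocytes (SD, n = 4) and 11.3 ± 1.60 in controls (SD, n = 6), and fell by 0.59 (adjusted p = 0.0145). It was the 1 gene of the lists of other mitochondrial genes to pass there. Summed microglial markers were 104 to 131 in G37R and 33.0 to 53.5 in control astrocyte libraries, and their part was not tested.

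The difference between the G37R effects in motor neurons and in astrocytes passed for 0 of 85 genes by limma in a joint fit, where 1.89% of all genes were more positive in motor neurons and 0.940% more negative. At an unadjusted p under 0.05, 13 were more negative, where 7.40% of all genes were, and the median difference was -0.25. Without astrocyte G37R 4 it passed for 30. The difference between motor neurons and 8-month oligodendrocytes passed for 0 of 84 genes, where 0.460% of all genes were more positive and 0.690% more negative. There 3 were more negative at an unadjusted p under 0.05, where 8.81% of all genes were. Against the 8-month spinal cord it passed for 3 of 85 genes, all more negative in motor neurons, where 4.38% of all genes were more positive and 2.70% more negative. These were Ndufb11 at -0.38 (adjusted p = 0.0138), Atp5j at -0.27 (adjusted p = 0.0376) and Ndufb2 at -0.29 (adjusted p = 0.0433).

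In 8-month oligodendrocytes with G37R, 0 of 85 genes passed in either direction, where 0.101% of all 11935 genes were higher and 0.00838% lower. At an unadjusted p under 0.05, 3 were higher and 0 lower, where all genes had 7.97% and 2.75%. The changes were small, with 71 of 85 negative, where 45.3% of all genes were, and a median of -0.06. Ndufs1 was nearest, at 65.6, 73.9, 66.2 and 71.5 in G37R and 54.9, 55.7, 59.6, 58.2 and 67.4 in control oligodendrocytes, with overlap (0.23, adjusted p = 0.366). Sdha had 0.07. Cox4i1 was at 1145, 1180.4, 1151 and 1085 in G37R and 1419, 1240.0, 1121, 1121 and 1073 in control oligodendrocytes, within the same range. The balance of short and long transcripts was -0.09 to -0.04 in G37R and -0.13 to 0.31 in control libraries, and with the length trend subtracted the median was -0.01. The largest value, 0.60 for Ndufs5, had an adjusted p of 0.616.

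**Figure D3:**
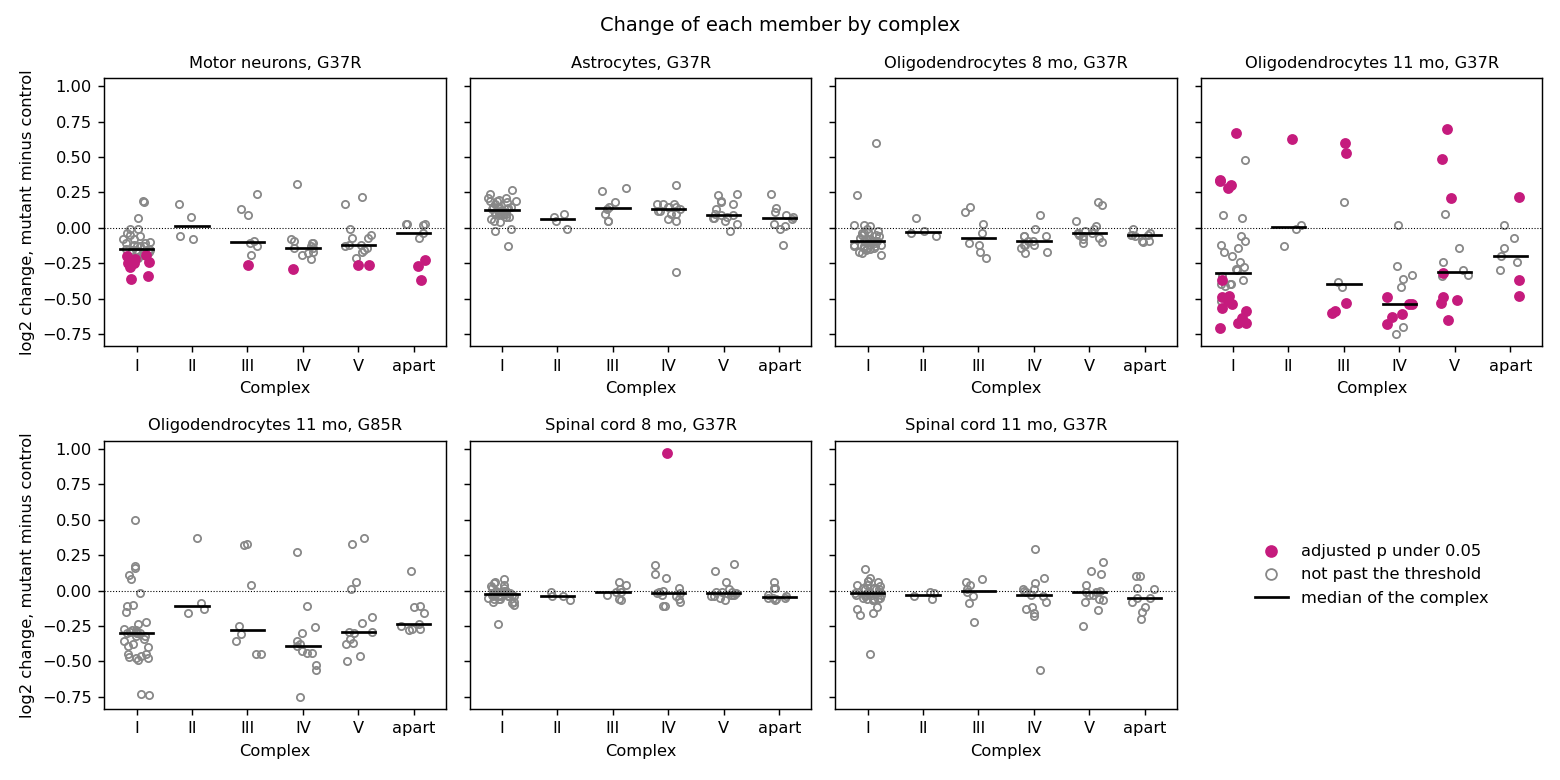
Log2 change of each tested gene, mutant minus control, by complex in 7 comparisons, with filled points for an adjusted p under 0.05 and a bar for the median of the complex. In motor neurons the filled points lie below 0, and in 11-month oligodendrocytes with G37R they lie on both sides, from -0.71 for Ndufa2 to 0.70 for Atp5b.

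At 11 months genes of the chain passed in both directions in oligodendrocytes with G37R against controls. Of 84 tested genes 12 rose (14.3%) and 27 fell (32.1%) by limma, where 26.1% of all 11733 genes were higher and 22.9% lower. The median of the chain was -0.33, against 0.00 over all genes. Groups did not overlap for 12 genes that lay above the controls and 10 that lay below, where all genes had 24.0% and 19.6%. With the libraries scaled to a common sum without the 50 top genes, 16 rose and 23 fell, where 31.3% of all genes were then higher and 15.4% lower.

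Genes of several kinds rose, among them core subunits of complex I, Sdha and subunits of the ATP synthase head. Accessory subunits of complex I, an assembly factor and a stalk subunit rose as well. Uqcrc1 and Uqcrc2, of complex III, are core proteins by name, which does not mark them as catalytic. Of the 7 core subunits of complex I, 3 had a negative change. Atp5b (mm9, chromosome 10, 127520362 to 127527444) was at 1417, 1851 and 1839 in G37R, 1584, 1206 and 1275 in G85R, and 972, 1016, 1011, 1111 and 1114 in control oligodendrocytes. Every mutant library of either kind lay above the highest control. For G37R the means were 1702 ± 247 (SD, n = 3) and 1045 ± 63.8 (SD, n = 5), a change of 0.70 ± 0.12 (log2, SE) with an adjusted p of 0.00247. Sdha (mm9, chromosome 13, 74459702 to 74487688) was at 249, 331 and 349 in G37R, 288, 232 and 253 in G85R, and 185, 176, 192, 227 and 214 in control oligodendrocytes. No mutant library fell within the control range, and G37R against control had 0.63 ± 0.13 (adjusted p = 0.00427). Uqcrc1, a core protein of complex III, was at 298, 420.1 and 422 in G37R, 349, 287 and 299.8 in G85R, and 241, 229, 229, 274 and 267 in control oligodendrocytes. Again the mutant libraries lay above the controls, and the G37R change was 0.60 (adjusted p = 0.00484). Its partner Uqcrc2 rose by 0.53 (adjusted p = 0.00563), and Atp5a1, the alpha subunit of the ATP synthase head, by 0.49 (adjusted p = 0.00712). In complex I, 3 of 7 core subunits rose and 0 fell, among them Ndufs1 by 0.67, with groups that overlapped, and Ndufv1, which binds NADH, by 0.33. Ndufa10, Ndufa9, Ndufaf1 and Atp5f1, the b subunit of the stalk, rose by 0.30, 0.28, 0.22 and 0.21.

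The genes that fell were mostly of short transcripts, with a median of 606 nt. In complex I 11 of 29 accessory subunits fell and 2 rose. Ndufs6, an accessory subunit of the peripheral arm, was at 233, 158 and 159 in G37R and at 353, 311, 294, 239 and 256 in control oligodendrocytes, without overlap. Its means were 183 ± 42.9 (SD, n = 3) and 290.5 ± 45.2 (SD, n = 5), a change of -0.67 (adjusted p = 0.0107). Ndufa7 was at 323, 216 and 222 in G37R, 227, 341 and 299.6 in G85R, and 477, 443, 392, 336 and 361 in control oligodendrocytes, and had -0.67 for G37R (adjusted p = 0.0108). The G37R libraries lay below the controls, while 1 G85R library lay inside their range. Ndufa2 had -0.71 (adjusted p = 0.0110), and Ndufb11, at 179, 139.9 and 149.8 in G37R and 252, 232, 214, 184 and 208 in control oligodendrocytes, had -0.48 (adjusted p = 0.0111). In complex IV 6 of 13 fell and 0 rose, led by Cox6a1, the widely expressed form of subunit 6a. It was at 843, 515 and 591 in G37R, 508, 833 and 777 in G85R, and 1260.1, 1136, 959.5, 862 and 940.0 in control oligodendrocytes. G37R library 1 was close to the lowest control, and the change was -0.68 (adjusted p = 0.0184). Cox5b, Cox6c, Cox7a2, Cox7c and Cox8a fell by 0.49 to 0.63. In complex III Uqcrq, Uqcr10 and Uqcr11 fell by 0.53 to 0.60, and in complex V 5 of 14 fell, among them Atp5k by 0.65 and Atp5g1 by 0.32. Cox4i1 was at 1158, 906 and 921 in G37R, 859, 1163 and 1044 in G85R, and 1424, 1335, 1221, 1045 and 1234 in control oligodendrocytes, with overlap and no call (-0.33, adjusted p = 0.0624). Of the other genes of complex II, Sdhb had 0.02, Sdhc -0.13 and Sdhd -0.01, none past the threshold.

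Up or down went with transcript length. The transcripts of the 12 genes that rose were 1342 to 2900 nt long with a median of 1774, and those of the 27 that fell were 322 to 2844 nt with a median of 606. Genes outside the chain had the same tendency, with a median of -0.44 under 600 nt and 0.17 over 5000 nt. Across genes, which are not independent replicates and share their libraries, the rank correlation of change with length was 0.68 over the chain and 0.28 over other genes. Under 600 nt 13 of 26 chain genes fell (50.0%), and 38.9% of other genes did. Between 1500 and 2000 nt 6 of 10 chain genes rose (60.0%), and 21.8% of other genes did. Shares of the other length classes are not given here, so those given do not show an excess beyond length.

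**Figure D4:**
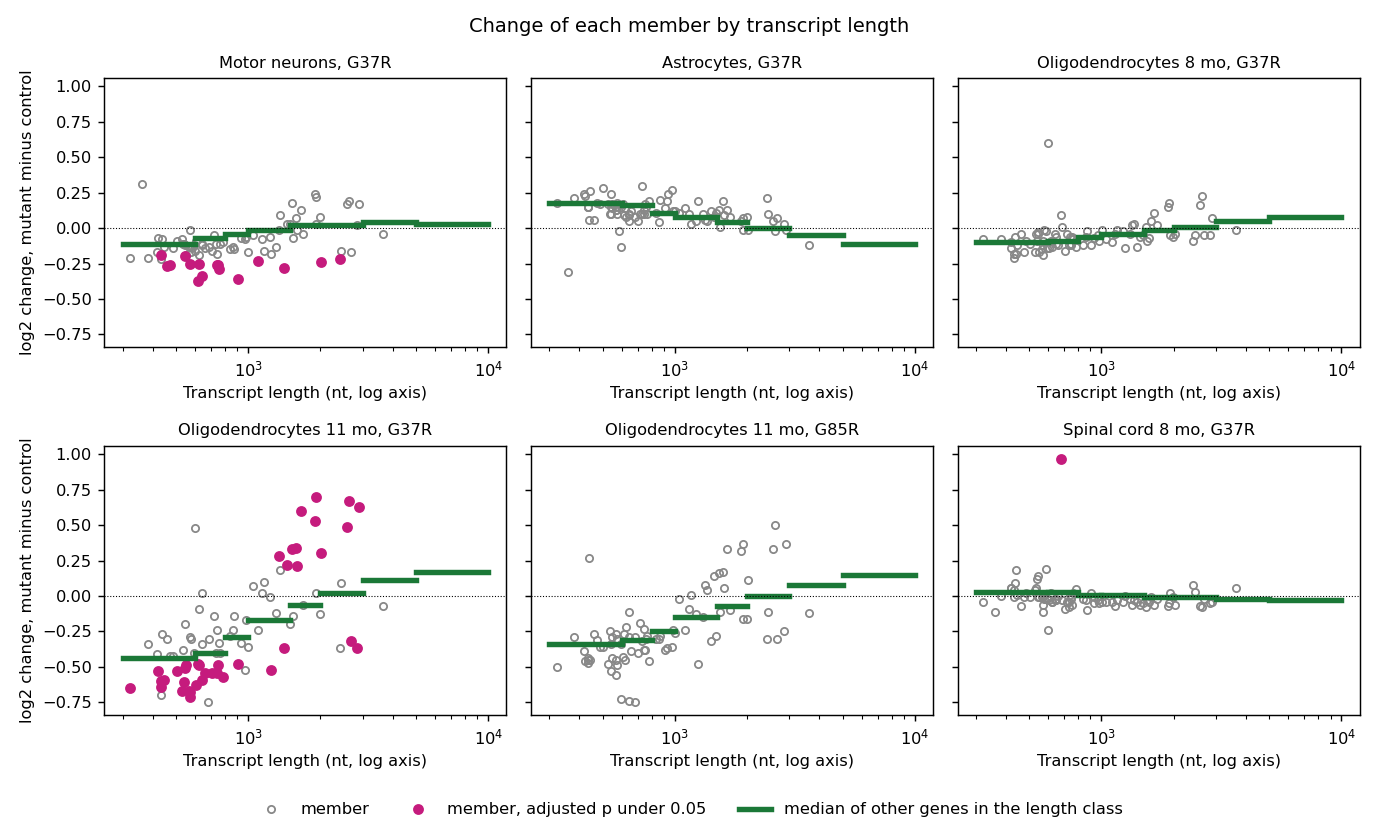
Log2 change of each gene of the chain, mutant minus control, against its transcript length (nt, log axis) in 6 comparisons, with filled points for an adjusted p under 0.05 and green steps for the median of other genes in each length class. In 11-month oligodendrocytes with G37R the steps run from -0.44 under 600 nt to 0.17 over 5000 nt, and the chain genes that rose lie above their steps.

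With each library's trend on length subtracted, 22 of the 84 chain genes rose, all 12 among them, and 13 fell, all within the 27. Under that setting 24.4% of all 11339 genes were higher and 25.8% lower, and the median of the chain was -0.01. Atp5b had 0.71 (adjusted p = 0.00155), Sdha 0.56 (adjusted p = 0.00268) and Uqcrc1 0.65 (adjusted p = 0.00450). On the falling side Ndufa2 had -0.30 (adjusted p = 0.00287), Cox6a1 -0.27 (adjusted p = 0.0193) and Ndufb11 -0.22 (adjusted p = 0.00612). By complex, 9 rose and 8 fell in complex I, 2 and 0 in complex II, 3 and 0 in complex III, 1 and 3 in complex IV and 5 and 1 in complex V. This alternative was chosen after seeing the data.

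The 11-month result rested on a few libraries. The balance of short and long transcripts was 0.07, -0.45 and -0.38 in G37R libraries 1 to 3, -0.46, 0.03 and -0.03 in G85R libraries 1 to 3, and 0.50, 0.38, 0.31, -0.08 and 0.07 in control libraries 1 to 5. The median deviation of the chain from the table mean ran alongside, at 0.06, -0.27 and -0.26 in G37R, -0.39, 0.05 and -0.01 in G85R, and 0.36, 0.28, 0.19, -0.07 and 0.05 in control libraries. Without G37R 2, and likewise without G37R 3, 5 genes rose and 0 fell. The number that fell was 46 without G37R 1, 41 without control 4, 41 without G85R 1, which enters the shared estimate of spread, and 7 to 11 without control 1, 2 or 3. Without G37R 2 and 3 together none passed, at a median of -0.08, and without controls 1, 2 and 3 none passed either, at -0.14. Atp5b then had 0.44 (adjusted p = 0.204) and 0.60 (adjusted p = 0.0670), and Sdha 0.33 and 0.47. Markers moved as well: general neuronal markers summed to 3031 to 4176 in G37R, 2416 to 3431 in G85R and 1765 to 2162 in control libraries, and microglial markers to 124 to 303, 45.2 to 466 and 36.1 to 57.4 in the same order of groups. Of 8 oligodendrocyte markers 4 fell and 0 rose in G37R, at a median of -0.34: Mobp had -1.06, Mog -0.78, Mag -0.35 and Ugt8a -0.34. Mbp had 1.99 with a standard error of 3.04, not past the threshold. The part of these cell types in the result was not tested.

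**Figure D5:**
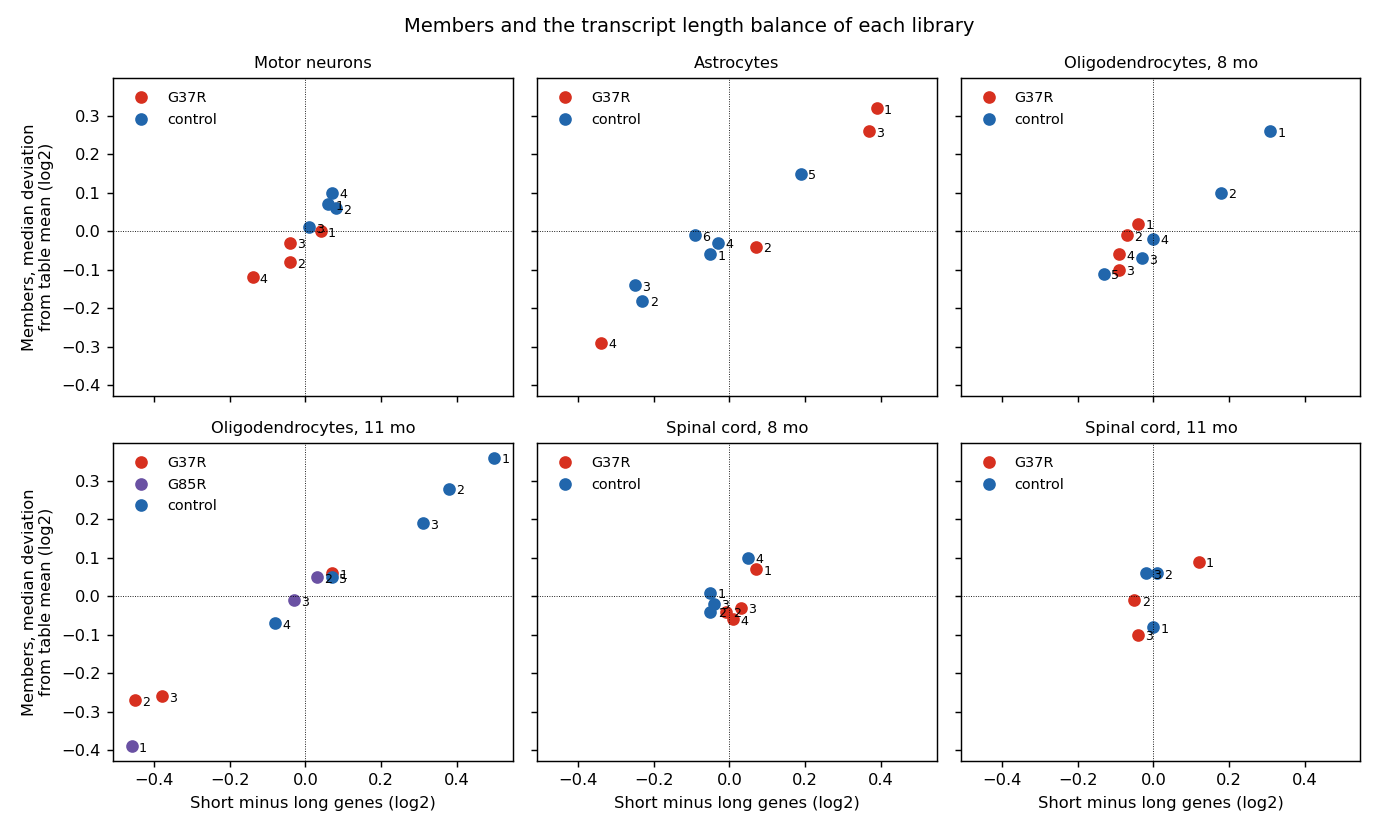
Median deviation of the chain from its table mean (log2) against the balance of short and long non-member transcripts (log2) for each library of the 6 tables, with replicate numbers beside the points and colours for G37R, G85R and control. In 11-month oligodendrocytes the points run from -0.46 and -0.39 for G85R 1 to 0.50 and 0.36 for control 1.

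The windows of Atp5b and Sdha are shown because these genes had the lowest p among those that rose and have a promoter sequence. Atp5b lies at chr10:128083057-128083356 on the plus strand and Sdha at chr13:74350191-74350490 on the minus strand (GRCm38.p6, RefSeq), with motif matches in capitals. Atp5b held 2 SP1 matches and Sdha 3 NRF1 matches. Of the genes with a window that rose in 11-month oligodendrocytes 2 of 8 held the NRF1 motif, and of those that fell 5 of 22. Matches of one motif that overlap on the 2 strands were counted once.
Atp5b: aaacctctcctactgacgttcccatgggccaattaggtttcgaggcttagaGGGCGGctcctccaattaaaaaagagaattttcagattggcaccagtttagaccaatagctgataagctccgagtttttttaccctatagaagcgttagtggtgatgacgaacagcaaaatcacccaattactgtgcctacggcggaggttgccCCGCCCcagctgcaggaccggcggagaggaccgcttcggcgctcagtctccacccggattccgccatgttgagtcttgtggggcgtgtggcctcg
Sdha: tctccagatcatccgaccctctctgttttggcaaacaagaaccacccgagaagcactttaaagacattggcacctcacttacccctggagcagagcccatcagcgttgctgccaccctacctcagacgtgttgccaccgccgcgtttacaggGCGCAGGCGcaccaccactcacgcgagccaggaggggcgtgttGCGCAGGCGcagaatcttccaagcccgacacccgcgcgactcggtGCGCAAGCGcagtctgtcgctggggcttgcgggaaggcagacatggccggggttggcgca

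Of 91 tested genes in the 5 lists of other mitochondrial genes, 37 rose and 8 fell at 11 months with G37R, where 26.1% of all genes were higher and 22.9% lower, and the lists differed. Of 17 genes of the citric acid cycle and pyruvate entry 16 rose and 0 fell, with a median of 0.54. Cs, citrate synthase, rose by 0.59 (adjusted p = 0.00157). Idh3a had 0.56, Idh3b 0.55, Pdha1 0.51 and Dlst 0.43. Of 17 genes listed under outer membrane and import 9 rose and 1 fell, with the porin Vdac1 at 0.64 (adjusted p = 0.00119) and Hspa9 at 0.71. That list also held the ADP/ATP carrier Slc25a5, which belongs to neither class, at 0.61. Of 21 electron carriers and related subunits 7 rose and 0 fell, among them Etfa at 0.56 and Cyc1, cytochrome c1, at 0.22. Assembly factors went both ways, 5 higher and 7 lower of 25, with Ttc19 at 0.46, Lrpprc at 0.69, Higd1a at -0.56 and Sdhaf1 at -0.72. None of 11 biogenesis regulators passed. These lists come from the same libraries as the chain. Their dependence on transcript length and on single libraries is not given here.

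The change with G37R between the 2 ages was tested in a joint fit of both oligodendrocyte tables. Of 84 genes of the chain, it was larger at 11 than at 8 months for 5 by limma and smaller for 0. Over all genes 7.24% were more positive at 11 months and 7.05% more negative. The 5 included Sdha at 0.56 (adjusted p = 0.0221), Atp5b at 0.51 (adjusted p = 0.0310), Ndufa10 at 0.34 (adjusted p = 0.0347) and Uqcrc1 at 0.49 (adjusted p = 0.0390). Age cannot be told apart from sex and from the table, since the 8-month libraries were all male and the 11-month ones were not.

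With G85R, the other mutant, 0 of 84 genes passed at 11 months, where 0% of all genes were higher and 0.00852% lower. At an unadjusted p under 0.05, 6 were higher and 25 lower, where all genes had 16.7% and 15.5%. The lowest adjusted p was 0.0911 and the median -0.29. The G85R comparison uses the same controls as the G37R one, so the 2 sets of changes are not independent. Atp5b had 0.37 (adjusted p = 0.104), Sdha 0.37 (adjusted p = 0.108) and Cox6a1 -0.56 (adjusted p = 0.110). G85R set directly against G37R gave 0 of 84, where 0.0256% of all genes were higher and 0.0170% lower, with 1 higher and 2 lower at an unadjusted p under 0.05, where all genes had 5.17% and 8.64%. There Atp5b had -0.33 (adjusted p = 0.336) and Sdha -0.25.

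In whole spinal cord 1 gene passed the threshold at 8 months and none at 11 months. At 8 months with G37R 1 of 88 genes rose and 0 fell, where 1.87% of all 13828 genes were higher and 0.296% lower, and the median was -0.03. Without adjustment, 2 were higher and 1 lower at a p under 0.05, where all genes had 7.79% and 7.88%. The gene was Cox6a2 (mm9, chromosome 7, 135348948 to 135349880), at 1.40, 2.53, 3.07 and 2.24 in G37R and 0.550, 0.437, 1.09 and 0.611 in control spinal cord. The groups did not overlap, at low levels, and the change was 0.97 ± 0.17 (log2 of level plus 1, SE) with an adjusted p of 0.0276. The control mean of 0.673 was under the minimum mean of 1 for testing, while the G37R mean was 2.31. The gene was thus tested only through its G37R level, and its p is not independent of that choice. Leaving out any of 6 of the 8 libraries ended that call, with adjusted p up to 0.0955. Summed muscle markers were 0.868 to 1.65 in G37R and 0.960 to 1.69 in control cord. At 11 months 0 of 88 passed, where 0.0217% of all 13839 genes were higher and 0% lower, the lowest adjusted p was 0.892, and 0 were higher and 3 lower at an unadjusted p under 0.05, where all genes had 2.10% and 3.27%. There Cox6a2 was at 1.40, 1.83 and 3.43 in G37R and 3.17, 1.36 and 0.686 in control cord, with overlap (0.29). Ndufb11 was at 127, 114, 113 and 109 in G37R and 116, 112, 106 and 122 in control cord at 8 months, with overlap. Sdha was at 259, 244, 242 and 237 in G37R and 254, 246, 253 and 254 in control cord at the same age, also with overlap. The balance of short and long transcripts was -0.01 to 0.07 in G37R and -0.05 to 0.05 in control cord at 8 months, and -0.05 to 0.12 in G37R and -0.02 to 0.01 in control cord at 11 months.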

How the data were processed

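Poly(A) RNA from 52 libraries in 13 groups was sequenced as 50 nt single ends from TruSeq libraries, per the labels' protocols. Tools listed in the submitters' processing notes are Cuffdiff, Cufflinks and TopHat2 2.0.8b, without roles or settings, and the build listed there is mm9 (mouse). In the 6 tables that the authors deposited, rows are genes and columns are libraries. The 11-month spinal cord table holds FPKM as deposited by the authors. The other 5 tables hold a signal that the authors deposited on a larger scale, per the values, and these were divided by 16774, the ratio of the spinal cord tables over 13810 genes. Read depth is unknown, so no interval or floor from counts is given.

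Each table was tested as log2(value + 1) on genes with a mean of at least 1, with limma 3.58.1 in R 4.3.3 (intensity trend, robust), Benjamini-Hochberg adjustment over all tested genes of a comparison and a threshold of 0.05. For low genes this scale makes fold changes too small. The 11-month oligodendrocyte groups shared one fit. Differences between effects came from a joint fit of 2 tables. The fits were tested on simulated data first. Transcript length is the median of protein-coding GENCODE transcripts and was known for 86.8% of listed genes. The symbols on more than 1 row, 248 per table, were kept as listed.

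The genes and the lists were chosen with earlier results of these data known. Named in each comparison were the members past the threshold (the 20 lowest p where there were more), complex II, the highest member of each other complex and the isoform sets, with further members of the called groups added after their values were seen. From other lists up to 5 genes past the threshold were named. Some genes that these rules name are not reported here. The design text calls the libraries biological replicates, and nothing says that each is a separate animal, so p-values measure the spread between these libraries. Groups share replicate numbers, but the correlation of same-numbered libraries' deviations was -0.27 to 0.35 and never over 0.1 in every pair, so the main fits have no block. Figures were drawn with matplotlib.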

Additional observations from a re-analysis of the deposited data

Results flagged for a closer look

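Within groups of 4 to 6 libraries, 108 tests for a library far from the others gave 3 flags, where chance flags about 1 in 20. Ndufaf2 was at 201 in G37R motor neuron library 4, below 249 to 257 in the other G37R libraries. The summed level of complex I was 6340.3 in G37R 8-month spinal cord library 1, above 5767 to 5855 in the others. The summed level of complex III was 2103 in control 8-month spinal cord library 4, above 1869.8 to 1907 in the others.

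The G37R effect differed between groups by a test of the difference in limma for the genes named here. It was larger in 11-month than in 8-month oligodendrocytes for Sdha (0.56), Atp5b (0.51), Uqcrc1 (0.49) and Ndufa10 (0.34), on the log2 scale. Of all genes tested there, 7.24% were more positive at 11 months and 7.05% more negative. The share of the chain that was more positive there was no higher than that of all genes. Age cannot be told apart from sex and from the table. The G37R effect was lower in motor neurons than in 8-month spinal cord for Ndufb11 (-0.38), Ndufb2 (-0.29) and Atp5j (-0.27). Of all genes in that comparison, 4.38% were more positive in motor neurons and 2.70% more negative. The share of the chain that was more negative there was close to that of all genes.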

How the results depend on the processing

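Alternatives changed 1 choice at a time, and leaving out libraries together and the length trend were chosen after seeing the data. In motor neurons 1 gene was higher with no filter on low values and 1 with common-sum scaling, the replicate block gave 9 lower, all among the 16, leaving out 1 library gave 0 to 1 higher and 2 to 28 lower, and leaving out G37R 3 and 4 together gave 2. Subtracting the length trend gave a median of -0.04. In astrocytes sample weights gave 1 higher, and leaving out 1 library 0 to 1. In 11-month oligodendrocytes with G37R, 17 fell with no filter and 60 with sample weights, leaving out 1 library gave 5 to 13 higher and 0 to 46 lower, and leaving out G37R 2 and 3, or controls 1 to 3, gave 0 and 0 with medians of -0.08 and -0.14. Subtracting the length trend gave 22 higher and 13 lower with a median of -0.01, and turned Atp5g3 to 0.19 (adjusted p = 0.0209) and Ndufa4 to 0.18 (adjusted p = 0.0175). With G85R, 1 fell with sample weights, leaving out 1 library gave 0 to 1 lower, and the length trend gave a median of -0.03. G85R against G37R gave 12 higher and 11 lower with sample weights, and a median of -0.19 without G37R 2 and 3. In 8-month spinal cord none rose at a minimum mean of 5, where Cox6a2 is not tested, and leaving out 1 library gave 0 to 1. Of differences between effects, motor neurons minus astrocytes passed for 10 with sample weights, 1 with the length trend and 0 to 30 without 1 library. Motor neurons minus 8-month oligodendrocytes passed for 3 with the length trend. The 11-month minus 8-month difference passed for 8 with median-ratio scaling, 66 with sample weights, 11 with the length trend and 0 to 27 without 1 library. Motor neurons minus 8-month spinal cord passed for 5 at a minimum mean of 5, 6 with median-ratio scaling, 1 with sample weights and 1 to 18 without 1 library. The causes were not tested. Common-sum scaling shifted the median of all genes by 0.112 in motor neurons minus astrocytes. Same-numbered libraries share only a number, and outside motor neurons the block moved no count of calls by over 1.5 times. For named genes, leave-outs of 1 library aside, 1743 values kept direction and side of the threshold, 95 lost and 12 gained the call, and 2 reversed. With groups of 3 to 6 libraries and unknown depth, a missed threshold does not show that a gene did not change.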
